A study of Mus musculus with 20 samples.

Results

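Protein phosphatases remove phosphate groups that kinases have placed on proteins. The genes described here were chosen by symbol, from the array probe sets that carry exactly 1 gene symbol: those starting with Ppp1 to Ppp6, Ppm1, Ptpn, Ptpr, Dusp or Mtmr. The rule found 134 probe sets for 78 genes, out of 9607 genes with such a probe set on the array. By symbol, 47 of the 78 belong to the serine/threonine class (9 Ppm1 genes, 2 catalytic and 36 regulatory Ppp genes) and 31 to the tyrosine class (13 Dusp, 9 Ptpr, 5 Mtmr and 4 Ptpn genes). The 36 counted as regulatory include the pseudogenes Ppp1r2-ps7 and Ppp4r1l-ps and the antisense RNA Ppp2r2cos. Each gene is described by its brightest probe set, the one with the highest mean of log2(value + 20) over the 20 arrays.

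Mouse oocytes, 1-cell embryos, 2-cell embryos, 8-cell embryos and blastocysts were each measured on 4 Affymetrix MOE430B arrays, to follow gene expression before implantation. Before labelling, the RNA of every stage was amplified by in vitro transcription in 2 rounds. The strain, the age of the females and the number of oocytes or embryos behind an array are not given in these sources, and nothing in the labels says that the arrays of a stage came from separate collections. The p-values therefore measure the spread between these arrays, which may be technical.

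As background, serine and threonine residues are dephosphorylated by a few catalytic subunits of the Ppp family, which take their targets and places in the cell from a large set of regulatory subunits, and by the Ppm family, which needs metal ions and mostly works without such subunits. Tyrosine residues are dephosphorylated by receptor (Ptpr) and non-receptor (Ptpn) phosphatases, and dual-specificity phosphatases (Dusp) act on tyrosine and threonine, many of them on MAP kinases. Myotubularins (Mtmr) have the same fold but act on phosphoinositide lipids, and some have lost their activity. In oocytes and early embryos these enzymes oppose the kinases that drive meiosis, mitosis, growth factor signalling and cell adhesion, while the embryo passes from stored maternal messages to transcripts of its own genome.

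Values are intensities, in arbitrary units that the authors scaled per array, and all changes are differences of mean log2(value + 20) between 2 stages, given with their standard error. That scale understates the change of dim genes. A gene was called at an adjusted p under 0.05 in limma, with adjustment over all 15234 tested probe sets. Of the 78 genes 65 passed the filter on low values and were tested, 40 of the serine/threonine class and 25 of the tyrosine class. The 13 others were Dusp5, Dusp16, Ppm1e, Ppp1r12c, Ppp1r27, Ppp1r42, Ppp2ca, Ppp3r2, Ppp6r2, Ptpn18, Ptpra, Ptprc and Ptpru, and their highest single-array values lay between 27.6 and 243.2. A dim probe set of this array does not show that a transcript was missing, because its probe sets often come from expressed sequence tags, and the companion array of the pair was not analysed here.

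Array medians ranged between 67.8 and 93.3, and the mean after trimming the extremes was 150.0 on every array. The 18S ribosomal control (middle probe set) read 398.1 to 850.0 on the oocyte arrays, 32272 to 42928.5 on the 1-cell arrays and 1578.2 to 2282.5 on the 2-cell arrays, so changes into and out of the 1-cell stage move with it. Markers of the oocyte summed to 74330 to 99320 in 1-cell embryos, 23320 to 46500 in 2-cell embryos, 4878 to 6144 in 8-cell embryos and 22540 to 27440 in blastocysts (7 measured of 13), where Khdc3 alone averaged 20820. The 3 measured trophectoderm markers of 11 (Dab2, Epcam and Tmprss2) summed to 9998 to 14500 in blastocysts, against 1184 to 1435 in 8-cell embryos, and the 4 measured of 10 for inner cell mass and primitive endoderm to 3989 to 12090, against 1013 to 1228. Most of these rises came from Tmprss2 (mean 9176, against 136.5) and L1td1 (6305, against 409.9). Epcam, Pdgfra and Dkk1 also rose, while Dab2 (adjusted p = 0.999) and Gata6 (adjusted p = 0.571) had no call. The 6 measured markers of cumulus and granulosa cells of 18 summed to 2689 to 3260 in 2-cell embryos, against 1073 to 1400 in 1-cell embryos. Of the 5 tested, Amhr2 rose (3.48, adjusted p = 1.21e-13), Cyp11a1 fell (-1.05, adjusted p = 0.012), and the median change was -0.35. The 5 measured sperm markers of 12 summed to at most 961.6 on any array, and no measured marker of these lists was listed at 0. The part of these movements in the results was not tested. In whole embryos, fewer cells of a type and less RNA per cell cannot be told apart.

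Among the 65 tested genes 41 changed over the 5 stages (63.1%, F test), against 59.5% of all 7475 genes tested in the same way. In the serine/threonine class 28 of 40 changed (70%), and in the tyrosine class 13 of 25 (52%). By family, all 8 tested Ppm1 genes and all 3 tested Ptpn genes changed, as did 4 of 5 Mtmr, 13 of 19 Ppp1r, 3 of 7 Ppp2r, 3 of 6 Ptpr and 3 of 11 Dusp genes. The range between the highest and lowest stage mean reached at least 2 log2 units in 21 of the 65 (32.3%), against 24.8% of all genes. Its median was 1.44 in the serine/threonine class and 0.90 in the tyrosine class, against 1.19 over all genes. These shares lie near those of all genes, and no test of the difference was made.

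**Figure D1:**
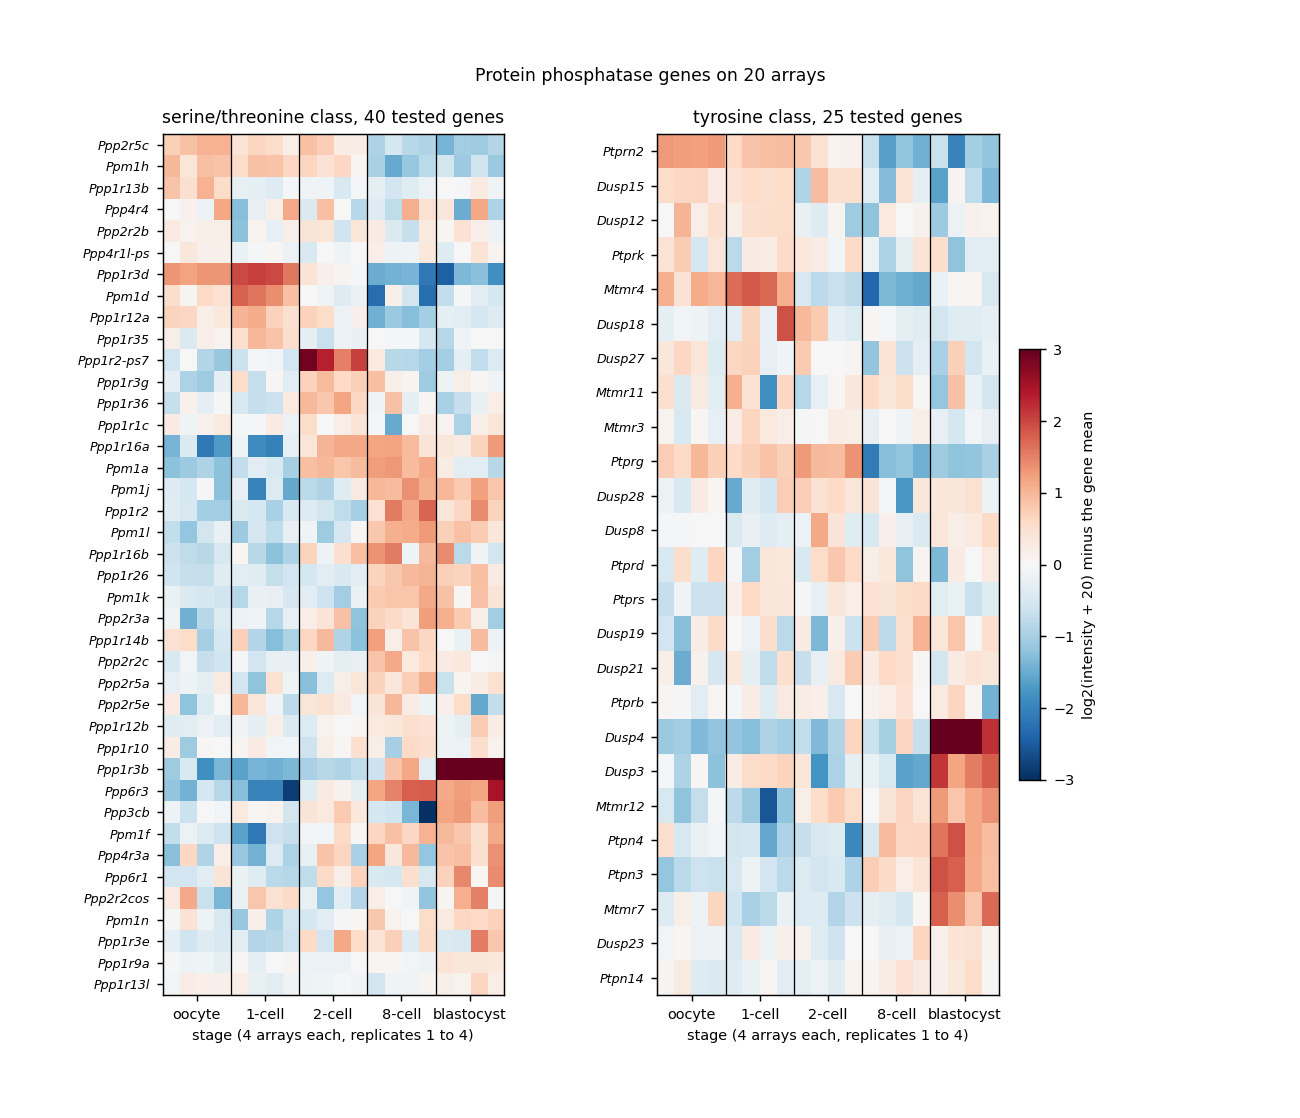
Log2(intensity + 20) of each tested phosphatase gene on each of the 20 arrays, minus the mean of that gene, with the 40 serine/threonine genes on the left and the 25 tyrosine genes on the right, ordered by the stage of their highest mean. Blocks of red and blue shift together over the 4 arrays of a stage in the genes of large range, such as Ppp1r3d, Ppp1r3b, Dusp4 and Mtmr4.

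At the 1-cell stage 1 of the 65 rose (1.54%) and 2 fell (3.08%) relative to the oocyte, against 3.46% and 6.27% of all genes. With quantile normalization, 1 rose and 1 fell. These small counts depended on the settings: with array weights 6 rose and 4 fell, and with a pseudocount of 80, 5 rose and 1 fell. At the 2-cell stage, when the mouse embryonic genome becomes active, 7 rose (10.8%) and 5 fell (7.69%) relative to the 1-cell stage. Of all genes 13.4% rose and 13% fell. With each array divided by its median, 7 members rose and 8 fell. At the 8-cell stage 11 rose (16.9%) and 10 fell (15.4%) relative to the 2-cell stage, against 15% and 17.7% of all genes. In blastocysts 9 rose (13.8%) and 2 fell (3.08%) relative to the 8-cell stage, against 11.1% and 7.77% of all genes. At this step the markers of trophectoderm and inner cell mass also rose in sum, mostly through Tmprss2 and L1td1. Over the whole course, 21 were higher (32.3%) and 9 lower (13.8%) in blastocysts than in oocytes, against 21.9% and 21.2% of all genes. With each array divided by its median, 18 were higher and 11 lower. That scaling moved the median change over all tested probe sets to -0.09 from 0.12. The shares of all genes given here belong to the main setting, not to the alternatives. In the comparisons of neighbouring stages 32 of the 65 had no call, 21 had 1, 10 had 2 and 2 (Mtmr4 and Ppp6r3) had 3. Of all genes 48.4% had no call, 25.9% had 1, 16.7% had 2, 7.44% had 3 and 1.57% had 4. Of the 47 calls, the 4 arrays of the later stage lay entirely above or below the 4 of the earlier stage in 41. The calls were picked by a small adjusted p on these same arrays, so this separation adds no separate support. Its share over all genes was not computed.

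Of the 40 tested serine/threonine genes, 6 rose (15%) and 3 fell (7.5%) in 2-cell relative to 1-cell embryos. In 8-cell embryos 9 rose (22.5%) and 7 fell (17.5%), and in blastocysts 4 rose (10%) and 1 fell (2.5%). Of the 25 tested tyrosine genes, 1 rose (4%) and 2 fell (8%) in 2-cell embryos. In 8-cell embryos 2 rose (8%) and 3 fell (12%), and in blastocysts 5 rose (20%) and 1 fell (4%). Over all genes, the shares of rises and falls were 13.4% and 13% in 2-cell embryos. They were 15% and 17.7% in 8-cell embryos, and 11.1% and 7.77% in blastocysts. Several shares of the classes lie near these. Of the 41 genes that changed, 18 of the 28 serine/threonine genes had their highest mean at the 8-cell or blastocyst stage, 10 at the first and 8 at the second. Of the 13 tyrosine genes, 7 were highest in blastocysts and 1 at the 8-cell stage. Of all genes that changed, 22.5% were highest at the 8-cell stage and 24.7% in blastocysts. No test of the difference between the classes was made.

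**Figure D2:**
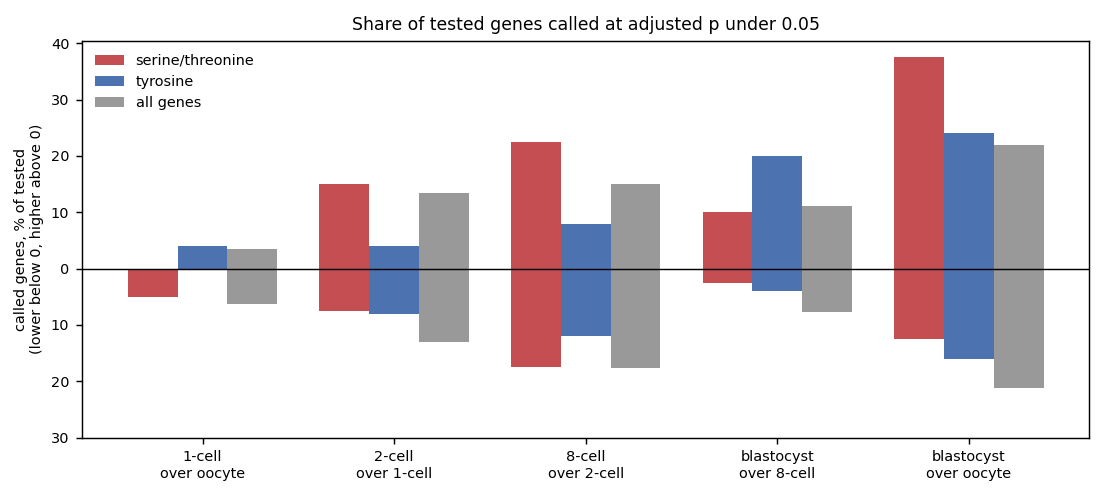
Share of tested genes called higher (above 0) or lower (below 0) in each of 5 stage comparisons, for the 40 serine/threonine genes, the 25 tyrosine genes and all 7475 genes. The serine/threonine bars reach 22.5% higher at the 8-cell stage and 37.5% higher between blastocyst and oocyte, against 15% and 21.9% of all genes. Other bars of the class lie near or below those of all genes. Its falls were 7.5% against 13% at the 2-cell stage and 17.5% against 17.7% at the 8-cell stage. Its rises in blastocysts relative to the 8-cell stage were 10% against 11.1%.

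The median level of the 47 serine/threonine genes, taken on each array, averaged 7.12 ± 0.20 log2 units in oocytes, 7.10 ± 0.21 in 1-cell embryos, 7.62 ± 0.11 in 2-cell embryos, 7.67 ± 0.10 in 8-cell embryos and 7.70 ± 0.16 in blastocysts (SD, n = 4 arrays each). That of the 31 tyrosine genes averaged 7.03 ± 0.13, 7.01 ± 0.26, 7.04 ± 0.08, 6.84 ± 0.07 and 7.23 ± 0.28 at the same stages. Over all 9607 genes the median lay between 7.09 and 7.22 at every stage. Within the class, the median of the 36 regulatory genes averaged 7.49 ± 0.06 in 2-cell and 6.86 ± 0.38 in 1-cell embryos, while that of the 11 catalytic genes averaged 8.01 ± 0.12 and 7.97 ± 0.30. The genes' own changes at this step were smaller: their median was 0.14 in the serine/threonine class and 0.02 in the tyrosine class, against 0.03 for all genes. With each array divided by its median intensity these medians became -0.06 and -0.19, and the median over all tested probe sets moved to -0.13 from 0.07, so the direction of the class medians at this step depends on the scaling. Between blastocyst and oocyte the median change was 0.45 in the serine/threonine class and 0.16 in the tyrosine class, against 0.07 for all genes.

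Among the Ppm enzymes, Ppm1a is also called PP2C alpha. It switches off stress-activated kinases and Smad signalling in mammalian cells. Ppm1a read 1757, 1933, 2181 and 1754 in oocytes, 2479, 3336, 2997 and 2070.3 at the 1-cell stage, 7739, 8325, 7419.7 and 8039 at the 2-cell stage, 9932, 10214, 7989 and 9213 at the 8-cell stage, and 4832, 3285, 3264 and 2327 in blastocysts. All 2-cell and 8-cell arrays lay above all others. Ppm1a rose at the 2-cell stage by 1.55 ± 0.19 (adjusted p = 1.07e-06), and fell by 1.48 ± 0.19 (adjusted p = 4.17e-06) in blastocysts relative to the 8-cell stage.

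The array carries 5 probe sets for Ppm1a, and all 5 rose at the 2-cell stage by very unequal amounts. The probe set named above rose by 1.55 log2 units, 1443903_at by 1.15, 1429500_at by 3.81, 1453171_s_at by 4.92 and 1429501_s_at by 5.52. Probe set 1453171_s_at averaged 179 ± 6.30 in oocytes and 202 ± 49.6 in 1-cell embryos, then 6601 ± 746, 18240 ± 2860 and 1732 ± 116 in 2-cell embryos, 8-cell embryos and blastocysts (SD, n = 4). It therefore rose again at the 8-cell stage (1.46, adjusted p = 1.34e-07), as did 1429500_at (0.86, adjusted p = 0.0474), where the brightest one had no call (0.24, adjusted p = 0.403). In blastocysts the log2 changes of 4 of the 5 were called, between -1.48 and -3.73, and 1443903_at had no call (-0.78, adjusted p = 0.143). Levels of different probe sets cannot be set against each other, and which parts of the Ppm1a transcripts they read was not analysed here. Choosing the brightest probe set by its mean intensity instead would show 1453171_s_at for Ppm1a and would change 1 other member, Ptprk.

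**Figure D3:**
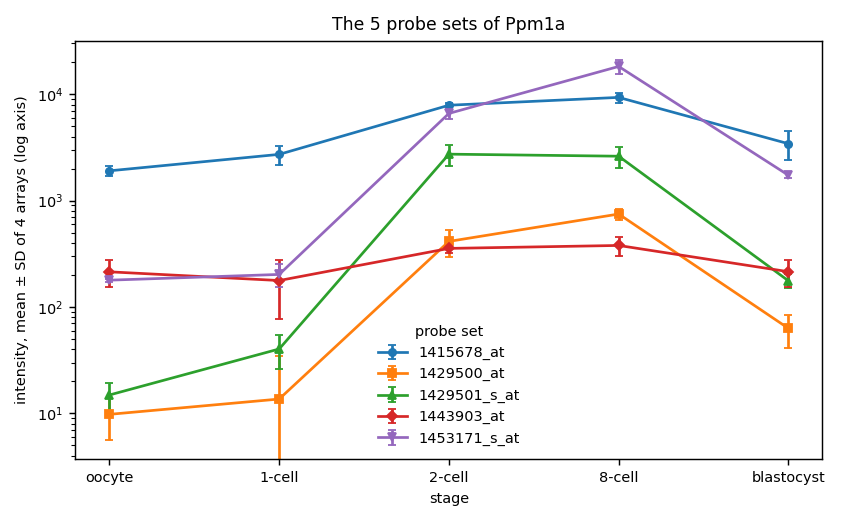
Mean intensity ± SD of 4 arrays at each stage for the 5 probe sets of Ppm1a, on a log axis. All 5 means are higher in 2-cell embryos, with 6601 against 202 for 1453171_s_at and 7881 against 2721 for 1415678_at.

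The promoter of Ppm1a is shown with those of Ppp6r3, which also rose at the 2-cell stage, and of Ppm1d and Ppp1r3d, which fell there, because these genes had large and opposite changes at genome activation. Each sequence is the 250 bases before the RefSeq transcription start on GRCm38.p6, read on the strand of the gene, at chr12:72760961-72761210 (plus strand) for Ppm1a, chr19:3575750-3575999 (minus) for Ppp6r3, chr11:85311004-85311253 (plus) for Ppm1d and chr2:178414464-178414713 (minus) for Ppp1r3d. Capitals mark 4 motifs found on either strand: the cAMP response element TGACGTCA, the CCAAT box CCAAT, the GC box GGGCGG and the TATA box TATAAA.
Ppm1a: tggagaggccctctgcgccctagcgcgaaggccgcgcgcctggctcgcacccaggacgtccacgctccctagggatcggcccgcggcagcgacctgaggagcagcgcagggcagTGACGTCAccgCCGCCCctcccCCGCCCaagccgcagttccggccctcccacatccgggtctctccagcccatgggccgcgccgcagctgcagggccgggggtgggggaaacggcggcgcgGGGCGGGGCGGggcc
Ppp6r3: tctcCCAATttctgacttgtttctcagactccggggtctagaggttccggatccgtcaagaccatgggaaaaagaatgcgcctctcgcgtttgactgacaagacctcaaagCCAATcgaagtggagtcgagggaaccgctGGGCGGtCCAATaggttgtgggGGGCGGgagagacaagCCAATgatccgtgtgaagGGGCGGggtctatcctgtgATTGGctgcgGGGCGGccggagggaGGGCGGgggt
Ppm1d: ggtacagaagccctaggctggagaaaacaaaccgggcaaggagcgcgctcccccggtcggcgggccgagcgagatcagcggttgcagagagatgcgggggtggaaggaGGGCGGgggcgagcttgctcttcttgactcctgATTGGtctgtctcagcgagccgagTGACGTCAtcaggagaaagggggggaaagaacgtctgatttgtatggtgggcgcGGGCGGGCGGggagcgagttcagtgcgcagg
Ppp1r3d: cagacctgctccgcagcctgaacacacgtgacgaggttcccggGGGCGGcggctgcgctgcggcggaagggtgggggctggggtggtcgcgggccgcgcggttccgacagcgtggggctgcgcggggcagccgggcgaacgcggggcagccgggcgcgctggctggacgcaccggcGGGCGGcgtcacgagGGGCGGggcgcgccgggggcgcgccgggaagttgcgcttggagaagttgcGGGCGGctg

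The Ppm1a and Ppm1d windows each hold 1 cAMP response element, a motif present in 1.55% of all 32851 windows of this kind and in 8.70% of the 69 windows of 60 members with an entry. It stood thus before 1 gene that rose and before 1 that fell. The Ppp6r3 window holds 5 CCAAT boxes and 5 GC boxes, the Ppm1a and Ppp1r3d windows 4 GC boxes each and no CCAAT box, and the Ppm1d window 3 GC boxes and 1 CCAAT box. GC boxes were in 62.3% of member windows and 32.7% of all windows, CCAAT boxes in 30.4% and 33.8%, and TATA boxes in 7.25% and 12.4%. Neighbouring GC boxes can overlap, as at the end of the Ppm1a and Ppm1d windows. Among the 5 risen genes with an entry, 4 held a GC box and 4 a CCAAT box, and among the 4 fallen genes 4 and 3. A match is a run of letters and shows no binding.

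Ppm1d, or Wip1, which dephosphorylates p53 and the DNA damage kinases, fell at the step where Ppm1a rose. Ppm1d read 433, 309.5, 453 and 399 in oocytes, 1044, 927, 799 and 568 at the 1-cell stage, 291, 266, 220.5 and 251 at the 2-cell stage, 44.5, 326, 192 and 44.6 at the 8-cell stage, and 166, 278, 233 and 195 in blastocysts. It was highest on the 1-cell arrays, which lay above all others. Ppm1d fell by 1.60 ± 0.37 (adjusted p = 0.00205) at the 2-cell stage, and was called lower again at the 8-cell stage (-1.06 ± 0.37, adjusted p = 0.0329). On the 8-cell arrays it was split, with 2 arrays near 45 and 2 at 192 and 326, so they overlapped with the 2-cell arrays. That second call was lost without 8-cell replicate 1 (adjusted p = 0.157) or 4 (0.15), and without 2-cell replicate 1, 2 or 4.

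Ppm1f, or POPX2, acts on calcium/calmodulin-dependent kinases and PAK kinases. Ppm1f read 152, 234, 195 and 166 in oocytes, 74.3, 44.9, 168 and 158 at the 1-cell stage, 252, 251, 406 and 276 at the 2-cell stage, 433, 509, 419.8 and 572 at the 8-cell stage, and 544, 488, 382 and 612 in blastocysts. Its 2-cell, 8-cell and blastocyst arrays all lay above its 1-cell arrays. Ppm1f rose at the 2-cell stage by 1.37 ± 0.27 (adjusted p = 0.000418), but had no call with the mean of both its probe sets (0.53, adjusted p = 0.171).

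Ppm1h, which dephosphorylates Rab GTPases, fell late. Ppm1h read 525, 331, 491 and 471 in oocytes, 379, 483, 468 and 400.3 at the 1-cell stage, 403, 348, 399 and 258 at the 2-cell stage, 119.5, 75.1, 103 and 134 at the 8-cell stage, and 166, 108, 159 and 106 in blastocysts. The first 3 stages did not overlap with the last 2. Its log2 change at the 8-cell stage was -1.54 ± 0.21 (adjusted p = 2.96e-06).

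The 3 enzymes Ppm1j, Ppm1k and Ppm1l rose at that same step. Ppm1k is the mitochondrial enzyme that activates branched-chain keto acid breakdown, and Ppm1l sits in the endoplasmic reticulum and acts on stress kinases. Ppm1j read 79.2, 69.8, 104 and 34.8 in oocytes, 88.4, 12, 76.3 and 24.5 at the 1-cell stage, 53.4, 47.4, 80.5 and 134 at the 2-cell stage, 236, 229, 314 and 252 at the 8-cell stage, and 237, 201, 281 and 211 in blastocysts. Ppm1k read 287, 241, 224 and 213 in oocytes, 176, 282, 275 and 227 at the 1-cell stage, 257, 209, 150.1 and 284 at the 2-cell stage, 587, 605, 607 and 747 at the 8-cell stage, and 621, 342, 624 and 438 in blastocysts. Ppm1l read 282, 205, 326 and 409 in oocytes, 217, 334, 276 and 405 at the 1-cell stage, 438, 220.2, 333 and 499 at the 2-cell stage, 859, 1041, 1061 and 1196 at the 8-cell stage, and 806, 907, 828 and 612 in blastocysts. In all 3 the 8-cell and blastocyst arrays lay above every 2-cell array. The rise of Ppm1j was 1.56 ± 0.35 (adjusted p = 0.00145). That of Ppm1k was 1.45 ± 0.21 (adjusted p = 9.12e-06), and that of Ppm1l was 1.48 ± 0.23 (adjusted p = 2.23e-05).

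Ppm1n changed over the 5 stages (adjusted p = 0.0099) without a call between neighbouring stages. Ppm1n read 105, 155, 96 and 73.6 in oocytes, 39.1, 123, 47.9 and 68.7 at the 1-cell stage, 69.5, 82.1, 103 and 114 at the 2-cell stage, 208, 118, 108 and 169 at the 8-cell stage, and 136, 180.4, 175 and 189 in blastocysts. Its highest means were at the last 2 stages. Ppm1e, a PAK and calmodulin kinase phosphatase known from brain, was not tested. Ppm1e read 32.5, 11.1, 3 and 11.3 in oocytes, 9.4, 8.2, 15.3 and 55.1 at the 1-cell stage, 10.4, 5.8, 11.6 and 31.5 at the 2-cell stage, 5.9, 12.2, 10 and 52.2 at the 8-cell stage, and 8.1, 12.3, 20.2 and 6.6 in blastocysts. These values are near the bottom of the arrays and show no order.

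Of the Ppp catalytic subunits 2 had a probe set that met the rule. Ppp3cb encodes a catalytic subunit of calcineurin, the calcium-dependent phosphatase that acts on NFAT. Ppp3cb read 281, 194, 316 and 291 in oocytes, 386, 328, 335 and 208 at the 1-cell stage, 414, 386, 550.3 and 396 at the 2-cell stage, 211, 199.9, 109 and 21.7 at the 8-cell stage, and 729, 785, 616 and 777 in blastocysts. The 8-cell arrays lay below all 2-cell arrays, and the blastocyst arrays lay above all others. The fall at the 8-cell stage was -1.81 ± 0.35 (adjusted p = 0.000249), and the return in blastocysts was 2.53 ± 0.35 (adjusted p = 8.47e-06). With the mean of its 3 probe sets the fall had no call (-0.71, adjusted p = 0.0583), the other 2 being too dim to test. Ppp2ca, the main catalytic subunit of PP2A, was read by 1 dim probe set and not tested. Ppp2ca read 5.7, 9.2, 5 and 8.7 in oocytes, 7.4, 17.5, 6.2 and 10.1 at the 1-cell stage, 8, 21.1, 22.1 and 6.4 at the 2-cell stage, 33.9, 17.9, 28.2 and 16.1 at the 8-cell stage, and 52, 28.3, 12.7 and 21.1 in blastocysts. This probe set says little of a transcript that most cells hold in abundance.

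**Figure D4:**
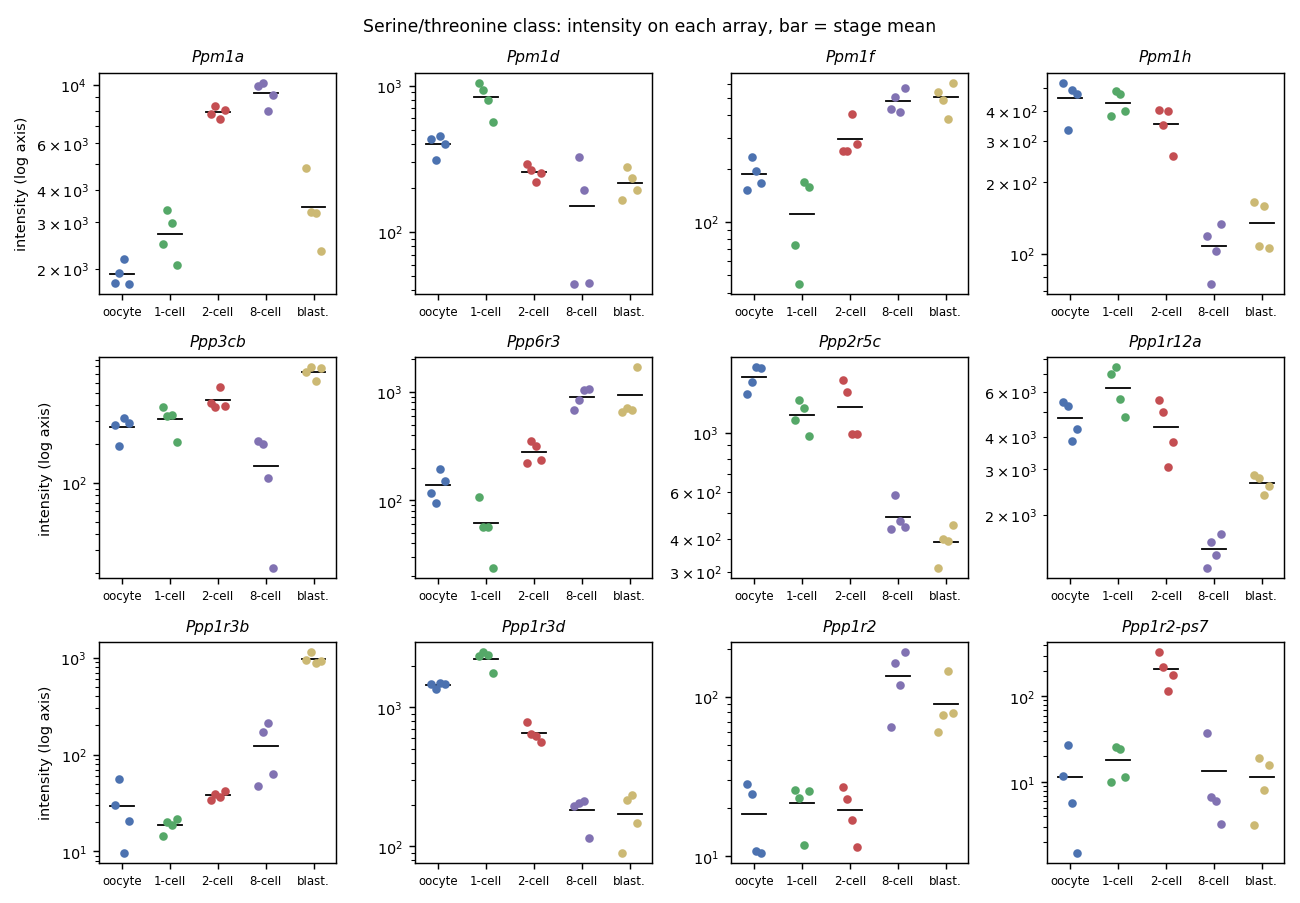
Intensity on each of the 20 arrays (points, log axis) and stage mean (bar) for 12 serine/threonine genes, one panel each with its own axis. Ppp1r3d and Ppp1r3b run in opposite directions, Ppp1r2-ps7 is high on the 2-cell arrays, and Ppp3cb dips at the 8-cell stage.

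The Ppp1r genes, named as regulatory subunits of PP1, formed the largest family, with 22 genes of which 19 were tested. Among those that bring PP1 to glycogen, Ppp1r3d fell and Ppp1r3b rose. Ppp1r3d, one such subunit of wide expression, was the member with the smallest F test p. Ppp1r3d read 1484, 1368, 1498 and 1482 in oocytes, 2352, 2499, 2367 and 1775 at the 1-cell stage, 782, 647, 621 and 563 at the 2-cell stage, 196, 205, 211 and 116 at the 8-cell stage, and 89.7, 215, 235 and 148 in blastocysts. The 1-cell arrays lay above all others, and the 8-cell and blastocyst arrays overlapped at the lowest level. Ppp1r3d fell by 1.75 ± 0.22 (adjusted p = 1.09e-06) at the 2-cell stage, and fell by 1.76 ± 0.22 (adjusted p = 7.48e-07) at the 8-cell stage.

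Ppp1r3b, the glycogen-targeting subunit best known from liver, rose late. Ppp1r3b read 30, 56, 9.6 and 20.7 in oocytes, 14.5, 20.2, 18.6 and 21.5 at the 1-cell stage, 33.7, 38.8, 36.7 and 42 at the 2-cell stage, 47, 172, 213 and 63.6 at the 8-cell stage, and 939, 1143, 882 and 937 in blastocysts. The blastocyst arrays lay far above all others. Ppp1r3b rose in blastocysts by 2.98 ± 0.35 (adjusted p = 7.34e-07). The earlier rise at the 8-cell stage was 1.12 ± 0.35 (adjusted p = 0.0166), with no call without 8-cell replicate 2 (adjusted p = 0.0717) or 3 (0.089). Of the other subunits of this type, Ppp1r3g was highest at the 2-cell stage, with a mean of 177 ± 20.3 (F test, adjusted p = 0.0227) and no call between neighbours. Ppp1r3e had a highest mean of 93.8 and no F test call (adjusted p = 0.0664).

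Ppp1r12a encodes MYPT1, which directs PP1 to myosin and so relaxes the actomyosin cortex. Its 4 probe sets all fell at the 8-cell stage, with log2 changes between -1.52 and -2.08. Ppp1r12a averaged 4726 ± 776, 6202 ± 1220, 4366 ± 1130, 1477 ± 194 and 2653 ± 199 at the 5 stages in order (SD, n = 4). The 8-cell arrays of the brightest probe set lay below all others. The fall was -1.52 ± 0.19 (adjusted p = 1.04e-06). At the 1-cell stage its 3 other probe sets rose by 0.75, 1.01 and 1.5, and the brightest had no call (0.38, adjusted p = 0.308). The return in blastocysts, 0.84 ± 0.19 (adjusted p = 0.00318), had no call with the mean of the 4 probe sets (0.48, adjusted p = 0.0719). Of its relatives, Ppp1r16a rose, Ppp1r12b had no F test call with its brightest probe set (adjusted p = 0.0519) and Ppp1r12c was too dim to test. Another probe set of Ppp1r12b, 1460091_at, rose at the 8-cell stage (1.60, adjusted p = 0.00115), as did the mean of its 4 probe sets (0.68, adjusted p = 0.0361).

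Ppp1r16a, or MYPT3, is a membrane-bound relative of MYPT1. Ppp1r16a read 67.3, 150.2, 31.9 and 50.9 in oocytes, 190.4, 41.9, 36 and 173 at the 1-cell stage, 274, 448, 489.9 and 496 at the 2-cell stage, 506, 509, 424 and 279 at the 8-cell stage, and 272, 252, 347 and 536 in blastocysts. Its 2-cell arrays all lay above its 1-cell arrays, as did its 8-cell and blastocyst arrays. The rise at the 2-cell stage was 2.00 ± 0.40 (adjusted p = 0.00046).

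Ppp1r2 encodes inhibitor 2, one of the oldest known inhibitors of PP1. Ppp1r2 read 28.4, 24.6, 10.8 and 10.5 in oocytes, 26.2, 23.2, 11.8 and 25.8 at the 1-cell stage, 27.4, 22.9, 16.8 and 11.4 at the 2-cell stage, 65.2, 163, 118 and 191 at the 8-cell stage, and 59.9, 76.7, 146 and 79.6 in blastocysts. It read at most 28.4 up to the 2-cell stage, and all 8-cell arrays lay above. The rise at the 8-cell stage was 1.90 ± 0.34 (adjusted p = 0.000112). Ppp1r2-ps7 is named as a pseudogene of this inhibitor and peaked earlier. Ppp1r2-ps7 read 11.7, 27.5, 5.7 and 1.5 in oocytes, 10.1, 25.9, 24.6 and 11.5 at the 1-cell stage, 328, 219, 115 and 177 at the 2-cell stage, 37.5, 6.7, 6.1 and 3.3 at the 8-cell stage, and 3.2, 19, 8.1 and 15.7 in blastocysts. All 2-cell arrays lay above every other array. The rise at the 2-cell stage was 2.54 ± 0.39 (adjusted p = 1.83e-05), and the fall at the 8-cell stage was -2.80 ± 0.39 (adjusted p = 3.41e-06). Near-identical copies can share a probe set, so the transcript behind this signal is uncertain.

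Ppp1r13b, or ASPP1, which binds p53, had 1 of the 3 calls between oocyte and 1-cell stage. Ppp1r13b read 786, 597, 894 and 623 in oocytes, 356, 343, 321 and 413 at the 1-cell stage, 393, 383, 300.1 and 415 at the 2-cell stage, 343, 277, 322 and 373 at the 8-cell stage, and 416, 414, 514 and 392 in blastocysts. All oocyte arrays lay above all later ones. The fall at the 1-cell stage was -0.97 ± 0.17 (adjusted p = 0.000352). Its inhibitory relative Ppp1r13l had a highest stage mean of 1079 and a lowest of 783.8, with no F test call (adjusted p = 0.0932).

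Ppp1r35 encodes a centriole protein. Ppp1r35 read 285, 180.0, 291 and 274 in oocytes, 364, 518, 469.5 and 371 at the 1-cell stage, 200, 151, 218 and 212 at the 2-cell stage, 255, 246, 242 and 173 at the 8-cell stage, and 129, 233, 249 and 249 in blastocysts. The 1-cell arrays lay above all others. The fall at the 2-cell stage was -1.06 ± 0.22 (adjusted p = 0.000682). Of the remaining PP1 subunits, Ppp1r26 rose at the 8-cell stage (1.29 ± 0.17, adjusted p = 1.61e-06) and Ppp1r36 at the 2-cell stage (1.28 ± 0.35, adjusted p = 0.00844). Ppp1r26 averaged 674 ± 80.4 in 8-cell embryos, against 264 ± 17.6 in 2-cell embryos. Ppp1r36 averaged 108 ± 21.1 in 2-cell embryos, against 34.3 ± 19.2 in 1-cell embryos. Neurabin, Ppp1r9a, and Ppp1r16b changed over the 5 stages without a call between neighbours, and Ppp1r9a was higher in blastocysts than in oocytes (0.51 ± 0.15, adjusted p = 0.00775; 0.28, adjusted p = 0.154, with arrays divided by their median), whereas Ppp1r10, Ppp1r14b and Ppp1r1c had no F test call.

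The B56 subunits guide PP2A to its targets at centromeres and kinetochores. Ppp2r5c fell at the 8-cell stage. Ppp2r5c read 1405, 1562, 1768 and 1759 in oocytes, 1125, 1335, 1244 and 971 at the 1-cell stage, 1579.9, 1429, 996 and 994 at the 2-cell stage, 435, 581, 464 and 440.3 at the 8-cell stage, and 309, 398, 393 and 450.5 in blastocysts. The first 3 stages lay above the last 2 on every array. Its change there was -1.32 ± 0.17 (adjusted p = 1.61e-06). Ppp2r5a was called higher at that step (1.00 ± 0.37, adjusted p = 0.0498), but its arrays overlapped, its F test had no call (adjusted p = 0.103) and 20 of 31 alternative settings lost the call. Ppp2r5e had no call with its brightest probe set at any step (F test, adjusted p = 0.276), while 1428461_at rose by 0.84 at the 2-cell stage and by 0.86 at the 8-cell stage, and 1439401_x_at by 0.96 and 0.67.

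Of the other PP2A subunits, the B55 subunit Ppp2r2c rose at the 8-cell stage by 0.84 ± 0.22 (adjusted p = 0.00537). Ppp2r2c averaged 282 ± 74 in 8-cell embryos, against 146 ± 23.3 in 2-cell embryos. Ppp2r3a changed in the F test only (adjusted p = 0.0405). Neither Ppp2r2b nor Ppp2r2cos, an antisense RNA to Ppp2r2c, had an F test call.

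The SAPS subunits direct the PP6 catalytic subunit, and Ppp6r3 had the most calls among serine/threonine genes. Ppp6r3 read 116, 94.5, 193 and 151 in oocytes, 108, 56.7, 57.1 and 23.5 at the 1-cell stage, 219, 349, 316 and 235 at the 2-cell stage, 679.5, 839, 1044 and 1067 at the 8-cell stage, and 656, 714, 683 and 1682 in blastocysts. It was lowest at the 1-cell stage, and 8-cell and blastocyst arrays lay above all earlier ones. Ppp6r3 rose at the 2-cell stage by 1.96 ± 0.30 (adjusted p = 2.36e-05), and at the 8-cell stage by 1.63 ± 0.30 (adjusted p = 0.000178). The fall called at the 1-cell stage, -1.03 ± 0.30 (adjusted p = 0.0387), rests on overlapping arrays and was lost under 12 of 32 alternative settings, with an adjusted p of up to 0.874. Its second, dimmer probe set had no call at any of these steps. Blastocyst replicate 4 read 1682, above the others at 656 to 714.

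Ppp6r1 was called higher in blastocysts (1.13 ± 0.37, adjusted p = 0.0393), with overlapping arrays and a mean of 199 ± 89.6 in blastocysts, against 77.7 ± 38.7 in 8-cell embryos. The call was lost under 9 of 31 alternative settings, with an adjusted p of up to 0.13. Among the PP4 subunits, Ppp4r3a changed over the stages (F test, adjusted p = 0.0191) without a call between neighbours, and was called higher in blastocysts than in oocytes (1.23 ± 0.48, adjusted p = 0.0449), a call that 13 of 32 alternative settings lost. Neither Ppp4r4 nor the pseudogene Ppp4r1l-ps had an F test call.

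Dimmer probe sets of other members also gave calls that the brightest did not. Ppm1h 1435510_at fell already at the 2-cell stage (-1.37, adjusted p = 0.00466). Ppp1r9a 1458942_at rose at that stage (1.53, adjusted p = 0.00211). In blastocysts relative to the 8-cell stage, Ppp1r13l 1439530_a_at rose (0.80, adjusted p = 0.0243), Ppp4r1l-ps 1442386_at rose (1.31, adjusted p = 0.0376) and Ppm1l 1435699_at fell (-1.12, adjusted p = 0.0329).

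**Figure D5:**
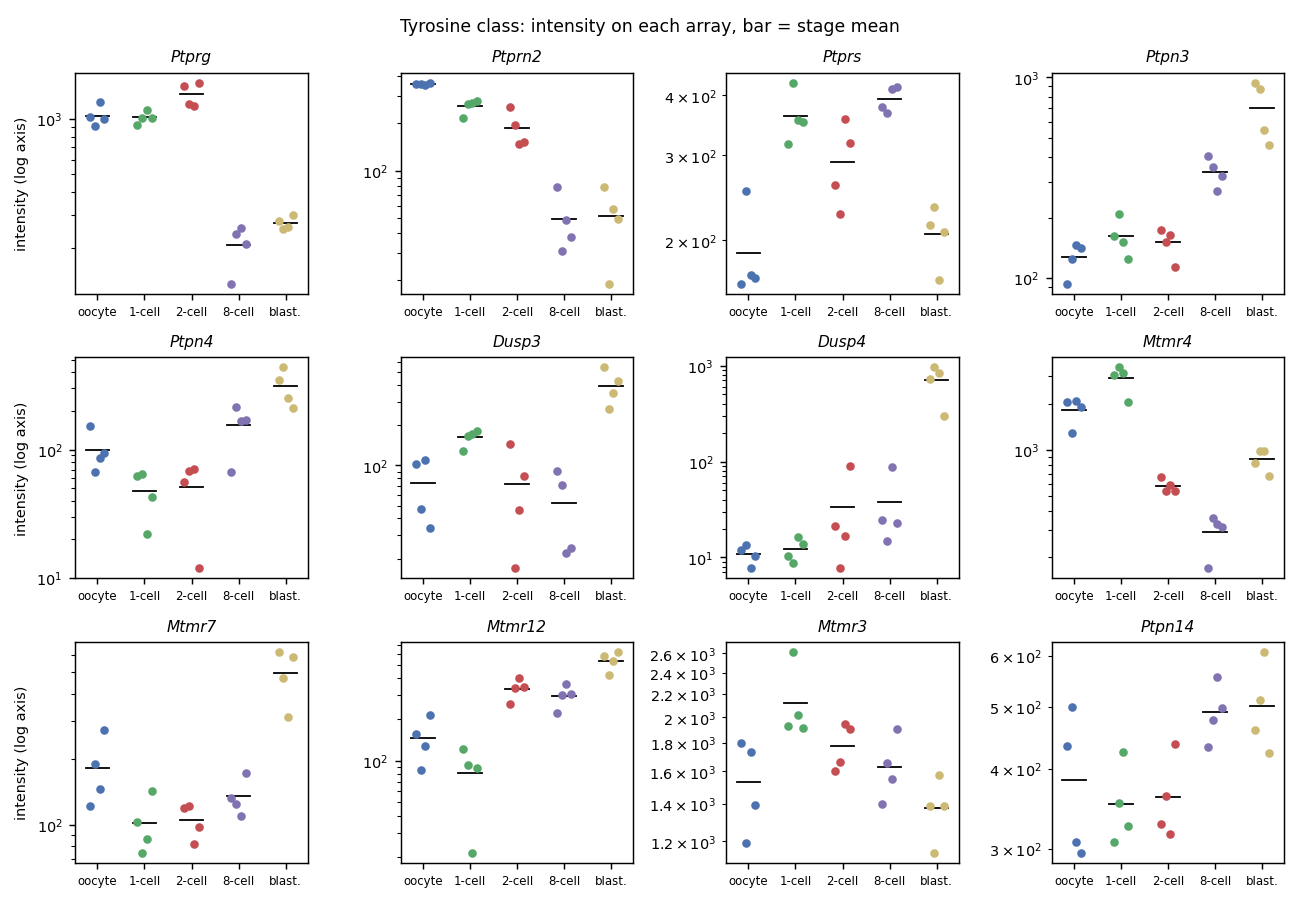
Intensity on each of the 20 arrays (points, log axis) and stage mean (bar) for 12 tyrosine class genes, one panel each with its own axis. Dusp4, Dusp3 and Mtmr7 are high in blastocysts, and Ptprg and Ptprn2 are low from the 8-cell stage on.

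Of the 6 receptor phosphatases tested, 3 changed over the stages. Ptprg, a receptor with a carbonic anhydrase-like outer domain, had the largest fall of the class at the 8-cell stage. Ptprg read 1019, 908, 1231 and 1002 in oocytes, 927, 1009, 1112 and 1014 at the 1-cell stage, 1504, 1208, 1175 and 1566 at the 2-cell stage, 128, 238, 255 and 209.8 at the 8-cell stage, and 278, 251, 258 and 299.6 in blastocysts. The first 3 stages lay far above the last 2. The fall at the 8-cell stage was -2.63 ± 0.18 (adjusted p = 1.99e-11). It rests on a probe set of the s_at type, which can match several transcripts: the next brightest, 1429691_at, averaged under 100 at every stage and had no call there (-0.61, adjusted p = 0.235). The brightest probe sets of Ppp1r13b, Ppp1r16a, Mtmr3, Mtmr4 and Mtmr7 are also of the s_at type.

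Ptprn2, or phogrin, is a protein of secretory granules. Ptprn2 read 359, 357, 352 and 363 in oocytes, 218, 266, 272 and 279 at the 1-cell stage, 254, 195, 148 and 152 at the 2-cell stage, 79.2, 30.9, 48.9 and 37.8 at the 8-cell stage, and 79, 19.1, 57.4 and 49.5 in blastocysts. All 8-cell arrays lay below those of the 2-cell stage, and the oocyte arrays lay above all others. Ptprn2 changed by -1.60 ± 0.27 (adjusted p = 5.25e-05) at that step.

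Ptprs, a receptor for proteoglycans, had the only called rise between oocyte and 1-cell stage among the members. Ptprs read 162, 253, 169 and 167 in oocytes, 317, 425, 356 and 352 at the 1-cell stage, 261, 227, 357 and 319 at the 2-cell stage, 378, 368, 413 and 416 at the 8-cell stage, and 216, 235, 166 and 208 in blastocysts. The 1-cell and 8-cell arrays lay above all oocyte and blastocyst arrays, and the 2-cell arrays overlapped with those of the oocyte, 1-cell and blastocyst stages. The rise at the 1-cell stage was 0.89 ± 0.18 (adjusted p = 0.00227), and the fall in blastocysts was -0.88 ± 0.18 (adjusted p = 0.00132). None of Ptprb, Ptprd and Ptprk had an F test call (adjusted p = 0.916, 0.721 and 0.49). For Ptprk a dimmer probe set, 1444763_at, averaged 277 ± 91.9 in blastocysts, against 50.9 ± 30.2 in 8-cell embryos (2.14, adjusted p = 0.00132).

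The non-receptor phosphatases Ptpn3 and Ptpn4, a related pair with a FERM and a PDZ domain, both rose at the 8-cell stage. Ptpn4 read 153, 66.6, 86.5 and 94 in oocytes, 62.4, 65, 22.1 and 42.6 at the 1-cell stage, 55.8, 67.8, 70.8 and 11.9 at the 2-cell stage, 66.8, 214, 168 and 169 at the 8-cell stage, and 349.7, 436, 251 and 211 in blastocysts. Its 1-cell and 2-cell arrays read at most 70.8, and its mean was highest in blastocysts. The rise of Ptpn4 was 1.31 ± 0.37 (adjusted p = 0.00926), with overlapping arrays and no call without 2-cell replicate 4 (adjusted p = 0.0515). Ptpn3 rose at the 8-cell stage by 1.07 ± 0.23 (adjusted p = 0.000788), and again in blastocysts by 0.96 ± 0.23 (adjusted p = 0.00433). It averaged 150.5 ± 26.1, 339 ± 56.5 and 703 ± 237 at the 2-cell, 8-cell and blastocyst stages. Ptpn14, which binds the Hippo pathway effector YAP, differed little, with its lowest stage mean at 352.9 and its highest at 500.8 (F test, adjusted p = 0.0482).

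Of the 11 tested dual-specificity phosphatases 3 changed. Dusp4, or MKP-2, is a nuclear phosphatase of ERK and JNK whose gene is itself induced by ERK signalling in other cells. Dusp4 read 12, 13.6, 7.7 and 10.4 in oocytes, 10.3, 8.8, 16.2 and 13.9 at the 1-cell stage, 21.3, 7.8, 16.8 and 89 at the 2-cell stage, 24.6, 15, 87.5 and 23 at the 8-cell stage, and 724, 956, 845 and 298 in blastocysts. The blastocyst arrays lay above all others, which read at most 89.0. Dusp4 rose in blastocysts by 3.69 ± 0.42 (adjusted p = 5.99e-07).

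Dusp3, or VHR, a small phosphatase of ERK and JNK, was also highest in blastocysts. Dusp3 read 102, 46.9, 110.1 and 34.1 in oocytes, 128, 166, 174 and 183 at the 1-cell stage, 144, 16.9, 46 and 84 at the 2-cell stage, 91.4, 71.1, 21.9 and 24 at the 8-cell stage, and 544, 268, 350.3 and 428 in blastocysts. The blastocyst arrays lay above all others. Dusp3 rose in blastocysts by 2.62 ± 0.41 (adjusted p = 4.36e-05). The fall called at the 2-cell stage, -1.17 ± 0.41 (adjusted p = 0.0401), had overlapping arrays and was lost under 7 of 32 alternative settings, 5 of them with a single 1-cell or 2-cell array left out. Dusp15 was lower in blastocysts than in oocytes (-1.42 ± 0.39, adjusted p = 0.0051) without a call between neighbours. The 8 others, Dusp8, Dusp12, Dusp18, Dusp19, Dusp21, Dusp23, Dusp27 and Dusp28, had no F test call, with adjusted p between 0.0864 and 0.43.

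Of the 5 myotubularins measured, 4 changed over the stages. Mtmr4, an active phosphatase of the endosomal lipid PI3P, was abundant in oocytes. Mtmr4 read 2046, 1279, 2075 and 1908 in oocytes, 3073, 3434, 3151 and 2050.3 at the 1-cell stage, 669, 537, 587 and 543 at the 2-cell stage, 169.7, 359, 330.3 and 313 at the 8-cell stage, and 828, 990.0, 978 and 676 in blastocysts. The 8-cell arrays lay below all others, and the blastocyst arrays lay above the 2-cell arrays and below the oocyte arrays. Mtmr4 fell by 2.27 ± 0.21 (adjusted p = 1.16e-08) at the 2-cell stage, fell by 0.99 ± 0.21 (adjusted p = 0.000851) at the 8-cell stage, and rose in blastocysts by 1.54 ± 0.21 (adjusted p = 9.74e-06).

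Mtmr3, its close relative, varied by less: its lowest stage mean was 1374 and its highest 2117 (F test, adjusted p = 0.0243), without a call between neighbours. Mtmr7, another active member, rose in blastocysts. Mtmr7 read 122, 189.9, 146 and 273 in oocytes, 103, 74.2, 86 and 143 at the 1-cell stage, 119, 122, 81.8 and 97.9 at the 2-cell stage, 133, 124, 109.9 and 173 at the 8-cell stage, and 619, 470.3, 313 and 586 in blastocysts. All blastocyst arrays lay above every earlier array. The rise of Mtmr7 was 1.71 ± 0.26 (adjusted p = 3.13e-05).

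Mtmr12, an inactive member that serves as an adapter for active myotubularins, rose at the 2-cell stage. Mtmr12 read 157, 86.4, 129 and 216 in oocytes, 122, 93, 21.4 and 88.8 at the 1-cell stage, 258, 338, 402 and 343 at the 2-cell stage, 222, 300.4, 365 and 306 at the 8-cell stage, and 576, 419, 533 and 617 in blastocysts. Its 2-cell arrays all lay above its 1-cell arrays, and its blastocyst arrays lay above all others. The rise at the 2-cell stage was 1.93 ± 0.30 (adjusted p = 2.31e-05). Mtmr11, also inactive, had no F test call (adjusted p = 0.762). With 5 members measured, no difference between active and inactive ones was tested.

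Genes that work with these phosphatases were taken from fixed lists, and from each list the 3 called genes with the smallest p in a comparison could be named. The probe sets shown for Cdc25c, Cttnbp2nl, Nek2, Bub1b and Wee2 are of the x_at or s_at type, which can match several transcripts. Of 19 other phosphatases tested, 3 rose and 0 fell in 1-cell embryos relative to oocytes (all genes: 3.46% and 6.27%). In 2-cell embryos 3 rose and 2 fell (all genes: 13.4% and 13%). In 8-cell embryos 3 rose and 5 fell (all genes: 15% and 17.7%). Blastocysts had 1 rise and 2 falls (all genes: 11.1% and 7.77%). These counts are small, and their difference from the shares of all genes was not tested. Cdc25c, which activates the mitotic kinase Cdk1, averaged 1679 ± 511 in 2-cell embryos, against 102 ± 34.3 in 1-cell embryos (3.78, adjusted p = 4.07e-11). Cdc14b rose at the 2-cell stage (2.07, adjusted p = 3.84e-07) and at the 8-cell stage (1.33, adjusted p = 0.000139), and fell in blastocysts (-1.29, adjusted p = 0.000419). Ssh1, the cofilin phosphatase slingshot, was called lower at the 8-cell stage and higher in blastocysts, as Ppp3cb was, and averaged 356 ± 54.4, 146 ± 29.2 and 714 ± 149 at the 2-cell, 8-cell and blastocyst stages. Pdp1, which activates pyruvate dehydrogenase, fell at the 2-cell stage (-1.70, adjusted p = 4.66e-08), as Ppp1r3d did.

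Of 15 tested regulators of PP1, PP2A and calcineurin, 3 rose and 1 fell at the 1-cell stage, 1 rose and 5 fell at the 2-cell stage, 1 rose and 7 fell at the 8-cell stage, and 4 rose and 0 fell in blastocysts. Over all genes, the shares of rises and falls were 3.46% and 6.27% at the 1-cell stage and 13.4% and 13% at the 2-cell stage. They were 15% and 17.7% at the 8-cell stage, and 11.1% and 7.77% in blastocysts. No test of the difference was made for this short list. Striatin, Strn, the scaffold of a PP2A complex, averaged 609 ± 40.4 in 8-cell embryos, against 2387 ± 29.8 in 2-cell embryos (-1.94, adjusted p = 7.36e-10). Its partner Cttnbp2nl fell by 3.55 at that step (adjusted p = 2.52e-12), whereas Mob4, a further partner, rose by 2.37 (adjusted p = 6.54e-08). Bod1, an inhibitor of PP2A with B56 subunits, fell by 1.78 at the 2-cell stage (adjusted p = 9.94e-09). Cdca2, which holds PP1 on chromosomes at the end of mitosis, averaged 2961 ± 937 at the 1-cell stage, against 1104 ± 78.9 in oocytes (1.36, adjusted p = 1.05e-05), and Ankle2, which brings PP2A to the reforming nuclear envelope, fell by 2.02 there (adjusted p = 1.67e-08).

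Of 7 tested MAP kinases and their activators, 1 rose and 1 fell at the 1-cell stage, and 1 rose and 2 fell at the 8-cell stage. Of all genes, 3.46% rose and 6.27% fell at the 1-cell stage, and 15% and 17.7% at the 8-cell stage. The shares were 13.4% and 13% at the 2-cell stage, and 11.1% and 7.77% in blastocysts. At the 8-cell stage Mapk6 rose (1.29, adjusted p = 0.0258) and Mapk4 fell (-1.41, adjusted p = 0.0249). Mapk8, or JNK1, a substrate of Dusp4 and Dusp3, averaged 152 ± 36.8 in 8-cell embryos, against 1550 ± 266 in 2-cell embryos (-3.20, adjusted p = 2.65e-12). It was still low in blastocysts, at 179 ± 38.1, where both Dusp genes were high. At the 8-cell stage, where Mapk8 fell, both were low (means of 37.5 for Dusp4 and 52.1 for Dusp3). No relation between these transcripts was tested. No list member of this kind was called at the 2-cell stage or in blastocysts. Of 4 tested mitotic kinases, Nek2 fell at the 1-cell stage and rose at the 2-cell stage, Bub1b fell at the 2-cell stage, Wee2 fell at the 8-cell stage, and in blastocysts Bub1b rose while Nek2 and Wee2 fell. Of 4 tested genes of the PI3P machinery, on whose lipid Mtmr4 acts, none was called between neighbouring stages.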

How the data were processed

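The deposited files hold 1 intensity value per probe set and array, for 22575 probe sets on 20 arrays, as the authors' software wrote it; its name, the summarization and the scaling target were not given in any source read for this work. The trimmed mean of the values was 150.0 on all arrays, so each array had been scaled to a common level. Per the labels' protocols, RNA was amplified by in vitro transcription in 2 rounds, which can shorten transcripts towards their 3' end and affect probe sets unequally.

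Values were tested as log2(value + 20), with limma 3.58.1 in R 4.3.3: 1 mean per stage, an intensity trend in the prior variance and 15 residual degrees of freedom. The 64 control probe sets were left out, and 15234 of the 22511 others had a value of at least 82.6, the median of the table, on 4 or more arrays and were tested. Benjamini-Hochberg adjustment ran over all of them within each comparison, and a gene was called at an adjusted p under 0.05. The F test covers the 4 comparisons of neighbouring stages together. The script was checked on simulated data. With 4 arrays per stage, the number of arrays limits the precision.

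Gene names came from GEO's platform annotation, updated through Entrez identifiers against a GRCm38.p6 gene table, where 14486 of 14661 probe sets with 1 symbol matched. Promoter sequences are from RefSeq on the same build. The annotation names no genome build for the probes, so no coordinates are given for them. Values on every array were given for the 5 largest called rises and 5 largest called falls in each comparison of neighbouring stages, for every catalytic Ppm and Ppp subunit, and for the called member of largest range in each family. Of each list of related genes the 3 called genes with the smallest p in a comparison could be named; other members are given by summary values, and probe sets or genes beyond the rule were chosen after their values were seen. The members and lists were chosen with earlier results of these data known.

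Replicate numbers did not pair the arrays: deviations from the stage means correlated between -0.0616 and 0.0635 for the same number (40 pairs of arrays) and between -0.0748 and 0.0961 for different numbers (120 pairs). No pair of arrays held the same values: 99.7% or more of the probe sets differed in every pair. Alternatives were other pseudocounts, filters and scalings, the prior without trend, array weights, the replicate number as a block, other rules for a gene's probe sets, and each array left out in turn. The choice of the brightest probe set by mean intensity was added after seeing the data.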

Additional observations from a re-analysis of the deposited data

Results flagged for a closer look

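In 9 of the 145 groups of 4 arrays tested among the members given array by array, 1 array stood far from the other 3 by Dixon's test. Chance gives about 1 in 20 such groups, so 9 is near that number. Ppp1r35 had 3 of them, all low: oocyte replicate 2 read 180.0 (the others 274.1 to 290.9), 8-cell replicate 4 read 172.8 (242.2 to 255.3) and blastocyst replicate 1 read 129.4 (233.3 to 249.4). Ppp1r3d was low in oocyte replicate 2 at 1368.3 (1482.3 to 1498.3) and in 8-cell replicate 4 at 115.7 (195.5 to 210.8). Ptprs was high in oocyte replicate 2 at 252.9 (162.5 to 169.3). Ppm1k was high in 8-cell replicate 4 at 747.0 (586.7 to 607.1). Ppp1r2-ps7 read 37.5 in 8-cell replicate 1 (3.3 to 6.7). Ppp6r3 read 1682.0 in blastocyst replicate 4 (656.1 to 713.8). Oocyte replicate 2 and 8-cell replicate 4 each hold several of these values, and the cause was not tested.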

How the results depend on the processing

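No call among the members changed its direction under any alternative. Of the 47 calls between neighbouring stages 36 were kept under every alternative that gave a value, as were 22 of the 30 calls between blastocyst and oocyte. Mtmr4, Mtmr7 and Ppp1r13b have only a probe set of the s_at type, so leaving out such probe sets gave no value for them. Counts of called members moved by over 1.5 times mainly between the 1-cell stage and the oocyte, where they were small. There the 1 rise became 5 with a pseudocount of 80, 3 with a filter at the 75th percentile, 6 with array weights and 3 with the mean of all probe sets of a gene. The 2 falls became 4 with array weights, and 1 with a pseudocount of 80, no filter, quantile normalization, no intensity trend, the replicate block, the mean of all probe sets, or without x_at and s_at probe sets. With arrays left out in turn, the rises there ranged between 1 and 3, with 3 without blastocyst replicate 1 and 2 without 1-cell replicate 4 or 8-cell replicate 1, 2 or 4, and the falls between 1 and 2, with 1 without oocyte replicate 1, 3 or 4 or 1-cell replicate 2. The 5 falls at the 2-cell stage became 8 with arrays divided by their median and 8 with array weights, and the 2 falls in blastocysts became 4 with the mean of all probe sets. The median change of the tyrosine class at the 8-cell stage was -0.11, and -0.02 with quantile normalization. Between blastocyst and oocyte, 7 alternatives lost the rise of Ppp2r2c and 13 that of Ppp4r3a, and quantile normalization lost the fall of Ppp1r12a (-0.29, adjusted p = 0.216). The replicate block, with numbers that did not pair the arrays, lost the calls of Ppp6r3 at the 1-cell stage (adjusted p = 0.0561) and of Ppp4r3a between blastocyst and oocyte (0.0518), and added Ppp1r12a (-0.52) and Ppp1r16b (1.20) at the 2-cell stage. The causes of these differences were not tested. With 4 arrays a stage and dim probe sets, small changes of genes near the low end of the arrays could not be measured.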
